A study of Mus musculus with 8 samples.

Results

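The genes examined here were the major histocompatibility complex (MHC) genes of the mouse, called H2 genes, together with the genes of their partner chains, peptide transporter and transcriptional activators. Members were chosen by symbol: every gene of both count tables whose symbol starts with H2- (43 genes), and B2m, Cd74, Tap1, Tap2, Tapbp, Ciita and Nlrc5. This gave 50 of the 24421 genes in the tables, of which 37 belong to class I and 12 to class II. The remaining gene, H2-Ke6, encodes a steroid dehydrogenase and is an MHC gene by position alone. The set and its marker gene, H2-Eb1, were selected on fold changes in these same libraries. The members' fold changes are therefore given as a description, with no p-value printed. Where a member is said to rise, fall or pass, this is a call of the test described below in these same libraries. Such a call is part of the description and is no independent evidence. In the GRCm38 annotation 42 members lie on chromosome 17, B2m lies on chromosome 2, Cd74 on chromosome 18, Ciita on chromosome 16 and Nlrc5 on chromosome 8, and 4 (H2-L, H2-Q8, H2-Q9 and H2-T9) have no position.

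RNA selected for polyA tails was sequenced from 8 libraries of mouse embryonic stem cells, cultured in 2i/LIF, which keeps them naive, over 3 to 4 passages. Ubc9-depleted v6.5 cells, harvested at 72 hours of doxycycline, were set against v6.5 cells called Ubc9-WT. Ubc9 is the E2 enzyme of SUMO conjugation, by which a small protein is joined to many nuclear proteins. H1-TKO cells carry knockouts of the linker histone genes Hist1h1c, Hist1h1d and Hist1h1e, and were compared with H1_WT cells; both lines stem from an earlier publication. Each of the 4 groups had 2 libraries. The labels give neither the strain of the H1 lines, nor whether they are single clones, nor whether Ubc9-WT cells received doxycycline, nor whether replicates are separate cultures, so that the errors below measure the spread between libraries alone. H2 genes differ in sequence between mouse strains, and the H2 haplotype of each line is not given in the sources used here.

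MHC class I molecules sit on nearly all nucleated cells and show peptides from inside the cell to cytotoxic T cells. Their heavy chains (such as H2-K1 and H2-D1) pair with the light chain B2m, and their peptides are pumped into the endoplasmic reticulum by Tap1 and Tap2 and loaded with the help of Tapbp. Class II molecules, built from an alpha and a beta chain such as those of H2-Aa and H2-Ab1, are made mainly by B cells, dendritic cells and macrophages, which also need the invariant chain Cd74 and the peptide exchanger H2-DM. Transcription of class I genes is driven by Nlrc5 and that of class II genes by Ciita, and both act at promoters through factors bound to an X box and a Y box. Embryonic stem cells are known for low levels of class I molecules and for lacking class II molecules.

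The promoter windows of 5 of the 6 members that were higher in H1-TKO cells are shown (RefSeq, GRCm38.p6, from 250 bases before to 50 after the start site, 5′ to 3′ on the strand of the gene). They were chosen by that call and not by their sequence. Of the motifs searched, H2-Eb1 and H2-Eb2 matched the X box and the Y box, and H2-Aa, Tap1 and H2-M10.4 matched the Y box alone. Capitals mark matches to an X box (CNAGNAAC), a Y box (ATTGG), an interferon-stimulated response element (GAAA, any 2 bases, GAAA) or a gamma-activated site (TTCNNNGAA), each searched on both strands. The windows lie at chr17:34305617-34305916 (H2-Eb1, plus strand), chr17:34325425-34325724 (H2-Eb2, plus strand), chr17:34287774-34288073 (H2-Aa, minus strand), chr17:34187306-34187605 (Tap1, plus strand) and chr17:36462280-36462579 (H2-M10.4, minus strand).
H2-Eb1: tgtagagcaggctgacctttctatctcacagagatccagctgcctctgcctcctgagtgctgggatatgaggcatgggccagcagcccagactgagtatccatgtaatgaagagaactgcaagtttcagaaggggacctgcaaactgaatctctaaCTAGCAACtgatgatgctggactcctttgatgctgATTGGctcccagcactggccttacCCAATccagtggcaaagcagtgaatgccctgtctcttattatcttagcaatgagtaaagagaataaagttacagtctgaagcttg
H2-Eb2: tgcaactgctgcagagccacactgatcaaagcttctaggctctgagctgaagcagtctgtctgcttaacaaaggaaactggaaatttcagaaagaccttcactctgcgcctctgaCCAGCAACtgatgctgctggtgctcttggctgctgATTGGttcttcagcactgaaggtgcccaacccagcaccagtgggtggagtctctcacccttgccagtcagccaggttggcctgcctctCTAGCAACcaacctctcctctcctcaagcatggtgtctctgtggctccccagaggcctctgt
H2-Aa: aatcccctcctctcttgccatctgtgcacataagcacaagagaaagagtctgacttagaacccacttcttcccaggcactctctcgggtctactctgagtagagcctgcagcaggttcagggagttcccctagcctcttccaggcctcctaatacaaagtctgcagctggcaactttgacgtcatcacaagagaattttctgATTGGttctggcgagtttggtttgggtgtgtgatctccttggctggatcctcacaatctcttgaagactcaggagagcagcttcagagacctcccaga
Tap1: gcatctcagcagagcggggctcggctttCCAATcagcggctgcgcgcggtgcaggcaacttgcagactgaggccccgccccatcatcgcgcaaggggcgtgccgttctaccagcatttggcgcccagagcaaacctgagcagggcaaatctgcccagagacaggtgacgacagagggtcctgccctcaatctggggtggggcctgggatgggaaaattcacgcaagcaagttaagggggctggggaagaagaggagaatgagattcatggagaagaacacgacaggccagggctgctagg
H2-M10.4: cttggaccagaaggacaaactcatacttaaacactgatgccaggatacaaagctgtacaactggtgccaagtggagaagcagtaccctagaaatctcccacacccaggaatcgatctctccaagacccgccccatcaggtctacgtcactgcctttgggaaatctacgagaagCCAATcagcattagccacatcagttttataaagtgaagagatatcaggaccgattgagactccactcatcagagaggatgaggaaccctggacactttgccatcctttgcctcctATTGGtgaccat

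A window was found for 34 members, and none was used here for H2-Ab1, Tap2, Nlrc5, Ciita or Cd74. In the H2-Eb1 window the X box started at position -94 and a Y box at position -59, counted from the start site. All 8 class II genes with a window held a Y box, as did 22 of 25 class I genes, against 37.4% of all 32851 RefSeq windows. By the letters CNAGNAAC, an X box was present in 5 of the 8 class II genes and 4 of the 25 class I genes, against 13.8% of all windows. The H2-Aa window, counted as without an X box, holds ctggcaac before its Y box, which differs from these letters in 1 base. The X box letters were shortened by 1 base after the H2-Eb1 window had been viewed. In H2-Eb1, H2-Eb2, H2-Oa, H2-Ob and H2-DMb1 the X box began 33 to 36 bases before a Y box on the same strand. That arrangement occurred in 18 of all windows (0.0548%) and in 0 of the class I windows. The range was taken from these class II windows, so that their falling inside it was set in advance. The class I gene H2-M2 had an X box 30 bases before a Y box on the same strand, just outside the range. The interferon-stimulated response element matched B2m, H2-T23 and H2-T22 and 0 class II genes, against 3.44% of all windows, and the gamma-activated site matched 2 class I genes and 1 class II gene, against 8.3%. None of these matches shows that a factor was bound.

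Library totals lay between 44441713 and 102780141 counts over genes, so that 3 counts corresponded to 0.0299 to 0.0685 CPM, which are counts scaled to library sizes with TMM factors. Hist1h1c, Hist1h1d and Hist1h1e had 0 counts in both H1-TKO libraries. Markers of embryonic stem cells were abundant, with a summed level of 10 genes between 4415 and 6836 CPM in every library. Ubc9-depleted library 1 stood apart: it had counts on 23462 genes, where the other Ubc9 libraries had 18584 to 19591, and of the 3743 genes at 0 in all 3 of those, 76.9% were counted in it, at a median of 6 counts. Calls were made with edgeR's quasi-likelihood test over all genes of a comparison, and a gene passed at an adjusted p under 0.05. Of 14800 genes tested in the H1 comparison, 8.59% were higher and 8.43% lower in H1-TKO cells, and of 16499 tested in the Ubc9 comparison, 21.1% passed as higher in Ubc9-depleted cells and 15.0% as lower. Because the members were selected on these contrasts, nothing is read from their counts against these shares.

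Per kilobase of exon (RPKM), B2m was the most abundant member in every group, at 57.6 and 54.3 RPKM in H1-TKO libraries, 40.5 and 41.9 in H1_WT, 16.6 and 18.1 in Ubc9-depleted and 14.6 and 16.8 in Ubc9-WT. The tables were normalized separately and came from different library kits, so levels were compared within a table only. H2-Eb1 stood next to B2m in H1-TKO cells (9.67 and 9.12 RPKM) and lay above Tapbp (8.39 and 8.55) and H2-M5 (7.37 and 9.09), a nonclassical class I gene, with no overlap but with little distance from H2-M5. Tapbp and H2-M5 overlapped. In H1_WT cells H2-Eb1 averaged 0.175 RPKM and was not among the 10 highest members, which were led after B2m by Tapbp (7.97 and 12.3 RPKM) and H2-M5 (7.07 and 8.74), whose levels overlapped. The order in Ubc9-depleted cells was B2m, H2-Eb1 (9.82 and 10.7 RPKM) and H2-Ke6 (7.22 and 6.07), with no overlap among them. In Ubc9-WT cells H2-M5 (7.60 and 6.80 RPKM), H2-Eb1 (6.71 and 6.89), Tapbp (5.75 and 6.07) and H2-Ke6 (6.69 and 4.80) followed B2m. H2-Eb1 overlapped in level with H2-M5, and Tapbp with H2-Ke6. H2-Ke6 shares 70.5% of its 50-base words with other annotated genes, so its level and its place in these orders are uncertain.

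The H1 comparison asks which genes change when the 3 linker histones are absent. Genes for class II chains were higher in H1-TKO cells: of the 12 class II members 8 could be tested, and 4 of these rose, 0 fell and 4 did not pass. Of all genes tested in this comparison 8.59% rose and 8.43% fell, and the members' counts are not read against these shares. The 4 that rose, H2-Ab1, H2-Aa, H2-Eb1 and H2-Eb2, are neighbours within 83.7 kb (chr17:34257689-34341412), where the tables hold 0 other genes. This stretch was drawn from the first to the last of them, and H2-Ea-ps (chr17:34341959-34344645), which was not tested, lies just past its end. The summed level of the 12 class II members was 29.7 and 29.0 CPM in H1-TKO libraries, against 4.14 and 6.13 CPM in H1_WT libraries. H2-Eb1 alone made up 63.3% and 61.2% of that sum in H1-TKO libraries, against 7.54% and 6.01% in H1_WT libraries. In bulk RNA, more cells that express a gene and more RNA per cell cannot be told apart.

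H2-Eb1 (chr17:34305867-34316674), the beta chain of the class II molecule I-E, had 18.8 and 17.7 CPM in H1-TKO libraries, from 824 and 1163 counts, against 0.312 and 0.368 CPM in H1_WT libraries, from 19 counts each. Both H1-TKO values lay far above both H1_WT values, and the log2 fold change was 5.74 ± 0.31 (± SE, 2 libraries per group, here and below). H2-Ab1 (chr17:34257689-34269419), the beta chain of I-A, had 4.82 and 6.63 CPM in H1-TKO libraries, against 0.345 and 0.446 CPM in H1_WT libraries. Its groups were also well separated, with a log2 fold change of 3.86 ± 0.40. H2-Aa (chr17:34282744-34287823), the alpha chain that pairs with H2-Ab1, had 13 and 21 counts in H1-TKO libraries and 0 in both H1_WT libraries. Its level was at least 11.7-fold higher in H1-TKO cells, taking 3 counts over both H1_WT libraries as the floor. H2-Eb2 (chr17:34325665-34341412), a relative of the I-E beta chain, had 12 and 23 counts in H1-TKO libraries and 0 in both H1_WT libraries, and was at least 12.0-fold higher. H2-Aa and H2-Eb2 passed the filter on low counts through the H1-TKO libraries alone; neither passed the test without H1-TKO library 1, and neither was tested without H1-TKO library 2. The alpha chain of I-E, H2-Ea-ps, is annotated as a polymorphic pseudogene and had 1 count over the 4 H1 libraries together.

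Those class II genes outside that stretch that could be tested did not pass. Cd74 (chr18:60803848-60812652), the invariant chain, had 1.37 and 1.30 CPM in H1-TKO libraries, against 1.59 and 3.22 CPM in H1_WT libraries. Both H1-TKO values were below both H1_WT values, with a log2 fold change of -0.85 ± 0.47, which passed without H1_WT library 1 (-1.27). Ciita (chr16:10480059-10528418), the class II transactivator, had 0.525 and 0.274 CPM in H1-TKO libraries, against 0.0164 and 0.698 CPM in H1_WT libraries. The H1_WT libraries bracketed the H1-TKO ones, and the log2 fold change of 0.17 ± 1.27 took either sign or passed according to the library left out, being -0.82 without H1_WT library 1 and 4.42 without H1_WT library 2. H2-DMa (chr17:34119541-34139101), a chain of the peptide exchanger, had 2.21 and 1.22 CPM in H1-TKO libraries, against 1.41 and 1.09 CPM in H1_WT libraries, which overlap. H2-DMb1, its partner chain, had 1.23 and 0.717 CPM in H1-TKO libraries, against 0.443 and 0.194 CPM in H1_WT libraries. These groups did not overlap, and the log2 fold change of 1.59 ± 0.74 passed without H1_WT library 1 (2.31). H2-Oa, a chain of the H2-DM modulator H2-O, had 8 and 26 counts in H1-TKO libraries, against 1 and 6 in H1_WT libraries, and was too low to be tested, while H2-Ob and H2-DMb2 had 0 counts in all 4.

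**Figure D1:**
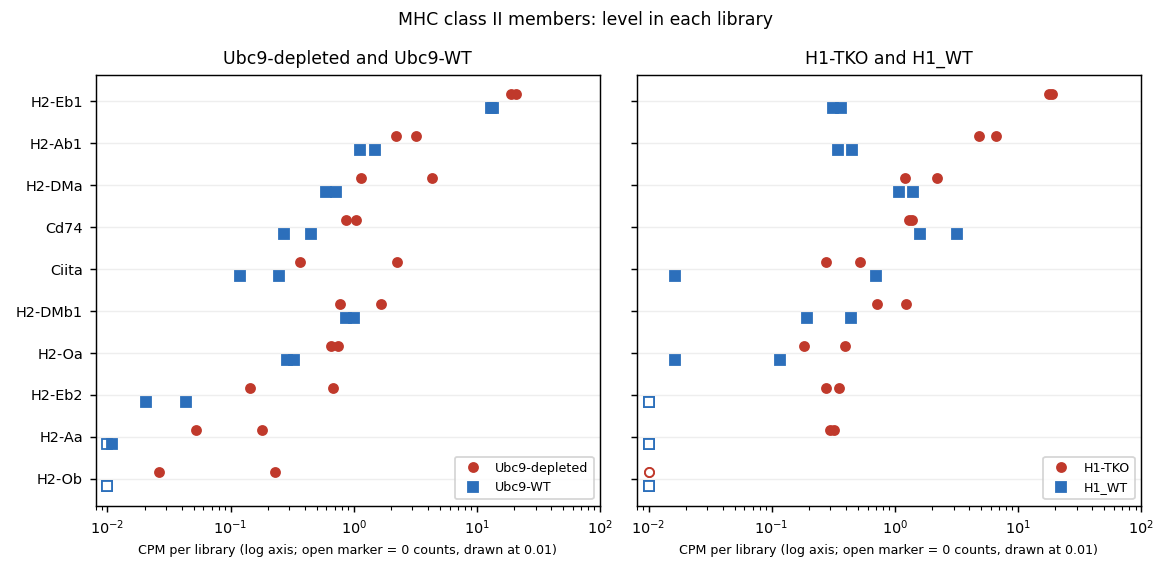
CPM of each class II member with a mean of at least 0.1 CPM in a group, in each library, on a log axis; circles are Ubc9-depleted or H1-TKO libraries, squares are Ubc9-WT or H1_WT libraries, and open markers are 0 counts drawn at 0.01. H2-Eb1 stands at 18.8 and 17.7 CPM in H1-TKO libraries, against 0.312 and 0.368 CPM in H1_WT, and at 19.1 and 20.8 CPM in Ubc9-depleted libraries, against 13.0 and 13.4 CPM in Ubc9-WT.

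Class I members moved in both directions in H1-TKO cells. Of the 37, 14 could be tested, of which 2 rose, 2 fell and 10 did not pass, where 8.59% of all genes rose and 8.43% fell. The summed level of the 37 was 126 and 129 CPM in H1-TKO libraries, against 108 and 134 CPM in H1_WT libraries, which overlap. Tap1 (chr17:34187553-34197225), a subunit of the peptide transporter, had 8.10 and 9.41 CPM in H1-TKO libraries, against 1.99 and 1.73 CPM in H1_WT libraries. The groups were clearly apart, and Tap1 rose by 2.24 ± 0.29 on the log2 scale. H2-M10.4 (chr17:36458917-36462334), of a family known from vomeronasal neurons, had 1.87 and 1.52 CPM in H1-TKO libraries, against 0.0164 and 0.0970 CPM in H1_WT libraries. It was near the floor in H1_WT cells, with 1 and 5 counts, and passed the filter on low counts through the H1-TKO libraries alone. Its log2 fold change was 4.90 ± 0.85.

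The members that fell in H1-TKO cells were a pair of nonclassical class I genes of the H2-T region. H2-T3 (chr17:36185572-36190287), the thymus leukemia antigen, had 0 and 5 counts in H1-TKO libraries, against 92 and 131 counts in H1_WT libraries, or 0 and 0.0762 CPM against 1.51 and 2.54 CPM. It was nearly absent from H1-TKO cells and passed the filter on low counts through the H1_WT libraries alone. Its log2 fold change was -5.46 ± 0.95. H2-Bl (chr17:36080115-36084223), annotated as a polymorphic pseudogene, had 0.616 and 0.549 CPM in H1-TKO libraries, against 2.66 and 4.50 CPM in H1_WT libraries. All H1-TKO values were below all H1_WT values, and it fell by 2.62 ± 0.46. H2-T3 shared 0.926% of its 50-base words with other annotated genes and H2-Bl 9.55%, the most with H2-T22 and H2-T23.

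The classical class I chains and their light chain did not pass. H2-K1 (chr17:33996017-34000347) had 6.50 and 6.56 CPM in H1-TKO libraries, against 10.7 and 10.4 CPM in H1_WT libraries. Its groups did not overlap, and its log2 fold change of -0.69 ± 0.24 passed without either H1_WT library (-0.66 and -0.71). B2m (chr2:122147686-122153083) had 49.6 and 46.7 CPM in H1-TKO libraries, against 34.8 and 36.0 CPM in H1_WT libraries, and its log2 fold change of 0.44 ± 0.20 likewise passed without either H1_WT library (0.42 and 0.46). H2-D1 (chr17:35262730-35267499) overlapped, with 1.21 and 1.95 CPM in H1-TKO libraries and 1.00 and 1.55 CPM in H1_WT libraries. Tapbp had 30.4 and 31.0 CPM in H1-TKO libraries, against 28.9 and 44.5 CPM in H1_WT libraries, and H2-M5 had 19.8 and 24.5 CPM against 19.0 and 23.5 CPM. Both overlapped between groups. Tap2, the other transporter subunit, had 0 and 19 counts in H1-TKO libraries, against 8 and 0 in H1_WT libraries, and was not tested. Nlrc5, the class I transactivator, had 5 and 37 counts in H1-TKO libraries, against 1 count in each H1_WT library, a ratio of 21.6 (95% counting interval 5.62 to 184) that was also not tested.

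Of the other nonclassical genes, H2-Q10, a secreted class I chain known from liver, had 0.297 and 0.0305 CPM in H1-TKO libraries, against 1.08 and 1.09 CPM in H1_WT libraries. The groups were apart, and the log2 fold change of -2.80 ± 0.99 did not pass here but did in DESeq2 (-2.78). H2-M3, which presents formylated peptides, had 0.525 and 0.473 CPM in H1-TKO libraries, against 0.607 and 1.59 CPM in H1_WT libraries, and H2-Q4 had 0.753 and 0.747 CPM against 0.886 and 1.88 CPM. Both were lower in H1-TKO cells in every pairing of libraries without passing, with log2 fold changes of -1.13 ± 0.68 and -0.88 ± 0.57. H2-T24 had 5.25 and 4.15 CPM in H1-TKO libraries, against 3.25 and 3.53 CPM in H1_WT libraries, with a log2 fold change of 0.47 ± 0.30. The pseudogene H2-K2 and H2-Ke6 had groups that overlapped, the second with 3.70 and 5.43 CPM in H1-TKO libraries, against 5.19 and 8.81 CPM in H1_WT libraries. H2-T10, H2-T22, H2-T23, H2-Q2, H2-Q5, H2-M10.2 and H2-M10.6 were not tested, with at most 0.591 CPM in a library, and 16 members had 0 counts in all 4 libraries. The counts of calls varied with the library left out, as did those of all genes. Over the members tested in each fit, the median log2 fold change was 0.19 without H1-TKO library 1 and -0.09 without library 2. It was 0.23 without H1_WT library 1 and 0.46 without library 2. The medians of all genes in these 4 fits were -0.05, -0.04, 0.03 and 0.03.

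The Ubc9 comparison asks which genes change when SUMO attachment is impaired. Of the 50 members 28 could be tested, of which 14 rose and 2 fell. Of 8 class II members tested 5 rose, and of 19 class I members 9 rose and 2 fell. Of all genes tested in this comparison 21.1% rose and 15.0% fell, and the members' counts are not read against these shares. The summed level was 32.7 and 28.0 CPM in Ubc9-depleted libraries for class II, against 17.2 and 16.9 CPM in Ubc9-WT libraries, and 91.9 and 94.9 CPM for class I, against 74.3 and 76.5 CPM. Neither sum overlapped between the groups. Of the members tested, 4 had a mean under 0.1 CPM in Ubc9-WT cells and passed the filter through the Ubc9-depleted libraries. The counts of calls varied with the library left out, as did those of all genes. Over the members tested in each fit, the median log2 fold change was 0.87 without Ubc9-depleted library 1 and 2.45 without library 2. It was 1.92 without Ubc9-WT library 1 and 1.70 without library 2. The medians of all genes in these 4 fits were -0.0051, 0.25, 0.24 and 0.22.

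Among class II genes, H2-Eb1 had 19.1 and 20.8 CPM in Ubc9-depleted libraries, against 13.0 and 13.4 CPM in Ubc9-WT libraries. The values within a group were close and the groups apart, with a log2 fold change of 0.60 ± 0.11. H2-Ab1 had 3.20 and 2.19 CPM in Ubc9-depleted libraries, against 1.49 and 1.13 CPM in Ubc9-WT libraries. The groups did not overlap, and its log2 fold change of 1.04 ± 0.40 did not pass without either Ubc9-WT library (1.23 and 0.82) or in DESeq2 (0.97). H2-DMa had 4.36 and 1.15 CPM in Ubc9-depleted libraries, against 0.597 and 0.717 CPM in Ubc9-WT libraries. Library 1 was much higher than library 2, and the log2 fold change of 2.07 ± 0.52 was 0.81 and did not pass without it. Ciita had 2.24 and 0.367 CPM in Ubc9-depleted libraries, against 0.247 and 0.120 CPM in Ubc9-WT libraries. The same library set its value, with a log2 fold change of 2.83 ± 0.82, or 0.98 and no pass without library 1. H2-Eb2 had 68 and 11 counts in Ubc9-depleted libraries, against 2 and 4 in Ubc9-WT libraries, and its log2 fold change of 3.64 ± 1.22 was 2.13 and did not pass without library 1. H2-DMa, Ciita and H2-Eb2 also did not pass without either Ubc9-WT library, H2-Eb2 did not in DESeq2, and H2-Ab1 and H2-Eb2 did not without the filter on low counts.

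Cd74, H2-Oa and H2-DMb1 showed the reverse pattern of calls. Cd74 had 1.05 and 0.864 CPM in Ubc9-depleted libraries, against 0.453 and 0.272 CPM in Ubc9-WT libraries, and H2-Oa had 0.648 and 0.746 CPM against 0.288 and 0.326 CPM. Neither overlapped between groups, and their log2 fold changes of 1.40 ± 0.74 and 1.18 ± 0.82 did not pass with all libraries but did without Ubc9-depleted library 1 (1.24 and 1.27). H2-DMb1 had 0.767 and 1.65 CPM in Ubc9-depleted libraries, against 0.998 and 0.858 CPM in Ubc9-WT libraries, and its sign turned with the library left out, at 0.82 without Ubc9-depleted library 1 and -0.35 without library 2. H2-DMb1 and H2-DMb2 share 22.7% and 25.9% of their 50-base words with other genes, so reads may be split between them. H2-Aa had 18 and 4 counts in Ubc9-depleted libraries, against 0 and 1 in Ubc9-WT libraries, and H2-Ob had 23 and 2 against 0 and 0, and both were too low to be tested. H2-DMb2 and H2-Ea-ps had at most 15 counts in a library.

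The genes of peptide transport and the class I transactivator rose in Ubc9-depleted cells. Tap1 had 7.01 and 6.70 CPM in Ubc9-depleted libraries, against 1.09 and 0.978 CPM in Ubc9-WT libraries. The libraries of a group nearly coincided, and the log2 fold change was 2.73 ± 0.26. Tap2 (chr17:34203527-34216321) had 1.91 and 1.57 CPM in Ubc9-depleted libraries, against 0.216 and 0.380 CPM in Ubc9-WT libraries, and rose by 2.55 ± 0.64. Nlrc5 (chr8:94434356-94527272) had 2.22 and 0.760 CPM in Ubc9-depleted libraries, against 0.0103 and 0.0543 CPM in Ubc9-WT libraries. It was close to the floor of 3 counts in Ubc9-WT cells, rose by 5.49 ± 0.93, and passed without each library in turn, at 4.51 without Ubc9-depleted library 1 and between 4.71 and 6.96 without each of the others. Tapbp (chr17:33915899-33929292), by contrast, had 17.5 and 18.1 CPM in Ubc9-depleted libraries, against 20.8 and 22.0 CPM in Ubc9-WT libraries, and fell by 0.27 ± 0.11. This small decrease did not pass without Ubc9-depleted library 1, without either Ubc9-WT library or in DESeq2, and was -0.08 when scaled by library totals alone, a scaling that moved the median of all genes to 0.25.

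Heavy chains of class I moved in both directions in Ubc9-depleted cells. H2-K1 had 9.09 and 10.3 CPM in Ubc9-depleted libraries, against 5.78 and 5.49 CPM in Ubc9-WT libraries, and rose by 0.79 ± 0.15. H2-D1 had 3.40 and 3.78 CPM in Ubc9-depleted libraries, against 2.48 and 3.14 CPM in Ubc9-WT libraries, and did not pass at 0.36 ± 0.28. B2m overlapped between the groups, with 14.2 and 15.6 CPM in Ubc9-depleted libraries and 12.6 and 14.4 CPM in Ubc9-WT libraries, and its log2 fold change was 0.14 ± 0.11. Nonclassical chains had some of the largest fold changes. H2-M10.4 had 3.71 and 4.74 CPM in Ubc9-depleted libraries, against 0.772 and 0.663 CPM in Ubc9-WT libraries, and rose by 2.56 ± 0.35. H2-Q4 (chr17:35379617-35385290) had 2.96 and 3.05 CPM in Ubc9-depleted libraries, against 0.576 and 0.152 CPM in Ubc9-WT libraries, and rose by 3.04 ± 0.54. It shares 36.4% of its 50-base words with other genes, so its reads are uncertain. H2-M3 (chr17:37270220-37274484) had 2.10 and 1.45 CPM in Ubc9-depleted libraries, against 0.257 and 0.250 CPM in Ubc9-WT libraries, and rose by 2.81 ± 0.65. H2-Bl had 7.23 and 8.01 CPM in Ubc9-depleted libraries, against 3.53 and 3.36 CPM in Ubc9-WT libraries, and rose by 1.15 ± 0.18. Each of these 4 chains had both Ubc9-depleted values above both Ubc9-WT values. H2-T23, the Qa-1 antigen that presents signal peptides, had 86 and 14 counts in Ubc9-depleted libraries, against 2 in each Ubc9-WT library, and rose by 4.54 ± 1.22, or by 3.03 without Ubc9-depleted library 1. Tap2, H2-M3 and H2-T23 did not pass without either Ubc9-WT library, at log2 fold changes of 2.17 and 2.97, 2.80 and 2.75, and 4.47 and 4.53.

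H2-M5 (chr17:36984061-36989537) was the clearest member to fall in Ubc9-depleted cells. It had 11.7 and 15.2 CPM in Ubc9-depleted libraries, against 20.4 and 18.3 CPM in Ubc9-WT libraries. The groups did not overlap, and it fell by 0.53 ± 0.12, though by 0.34 and with no pass when scaled by library totals alone. H2-T24 had 2.26 and 2.86 CPM in Ubc9-depleted libraries, against 2.67 and 3.41 CPM in Ubc9-WT libraries, H2-K2 had 1.41 and 0.799 CPM against 1.13 and 2.15 CPM, and H2-T3 had 1.03 and 0.642 CPM against 1.37 and 1.17 CPM. Of these only H2-T3 had groups that did not overlap, and none passed with all libraries. H2-K2 and H2-T3 passed as lower without Ubc9-depleted library 1 (-1.04 and -0.99). H2-Q2, H2-Q10 and H2-T10 were higher in Ubc9-depleted libraries without passing, at 3.54 ± 1.48, 1.54 ± 0.93 and 1.02 ± 0.86, and H2-T10 shares 50.4% of its 50-base words with other genes. H2-Ke6, the dehydrogenase gene, had 11.9 and 9.98 CPM in Ubc9-depleted libraries, against 11.0 and 7.89 CPM in Ubc9-WT libraries, which overlap.

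**Figure D2:**
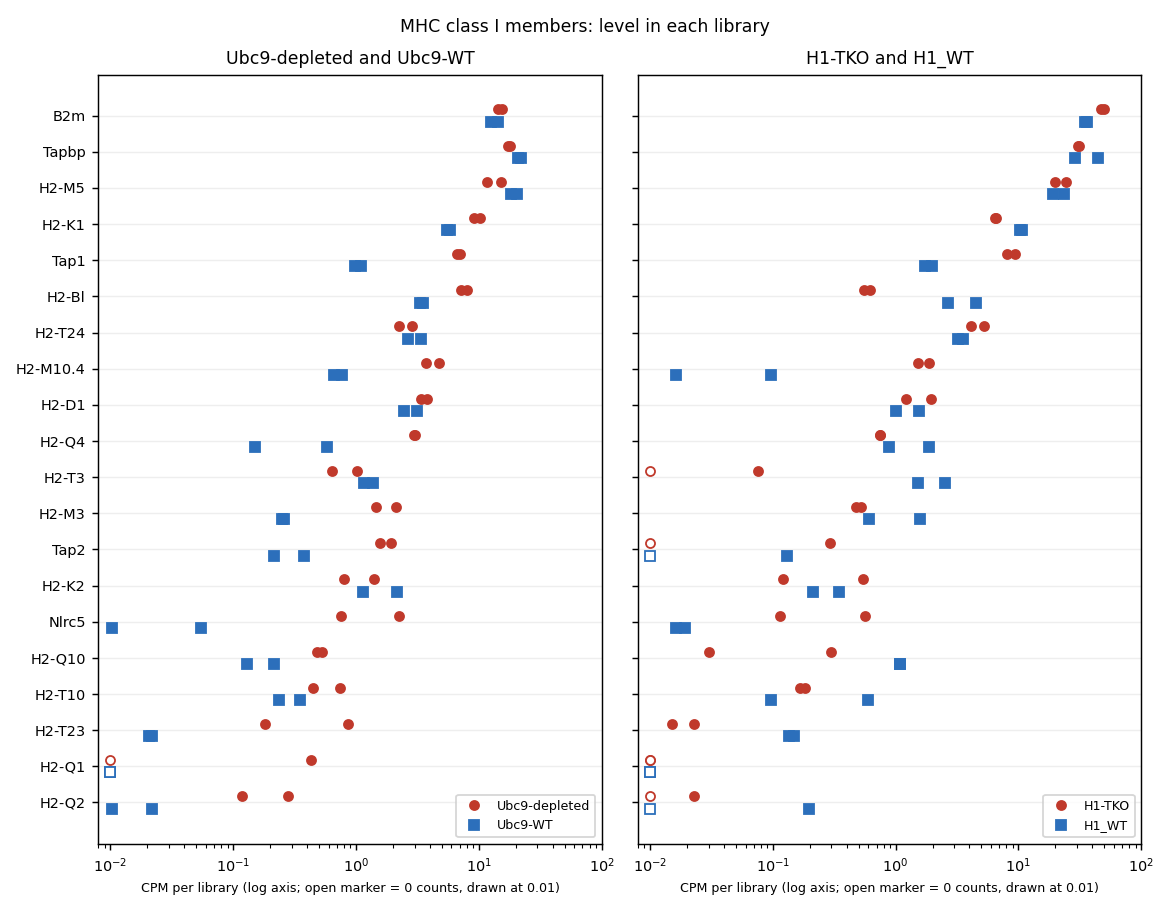
CPM of each class I member with a mean of at least 0.1 CPM in a group, in each library, on a log axis; circles are Ubc9-depleted or H1-TKO libraries, squares are Ubc9-WT or H1_WT libraries, and open markers are 0 counts drawn at 0.01. Tap1 stands at 7.01 and 6.70 CPM in Ubc9-depleted libraries, against 1.09 and 0.978 CPM in Ubc9-WT, while B2m, the light chain, overlaps between these groups.

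The members near 0 were those that differed most between the Ubc9-depleted libraries. H2-Q1, H2-Q5, H2-Q7, H2-Q8, H2-M1, H2-M11, H2-M10.3, H2-M10.5 and H2-Ea-ps had 1 to 43 counts in Ubc9-depleted library 1 and 0 in the other 3 Ubc9 libraries. They are 9 of the 13 members with 0 counts in those 3 libraries, beside 76.9% of such genes in the whole table, which had a median of 0.0423 RPKM in library 1. H2-Q1, with 43 counts, had 0.150 RPKM there, below the 90th percentile of such genes (0.224 RPKM). H2-M2, H2-M9, H2-M10.1, H2-M10.2, H2-M10.6 and H2-T22 had 6 to 15 counts in library 1 and at most 4 in any other Ubc9 library. H2-L, H2-Q6, H2-Q9 and H2-T9 had 0 counts throughout. For library 2 the same count of genes was 22 of 887. In the abundant members the libraries differed little, with 19.1 and 20.8 CPM for H2-Eb1 and 7.01 and 6.70 CPM for Tap1. The 9 class I members that rose also passed without library 1, whereas H2-DMa, Ciita and H2-Eb2 did not. The part of this library's wider coverage in the members' values was not tested.

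**Figure D3:**
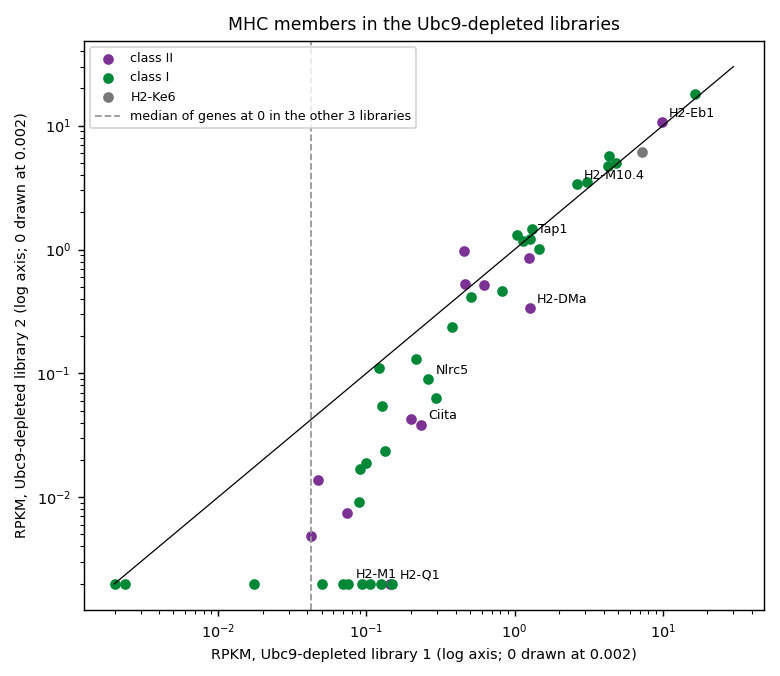
Level of each member with a known exonic length in Ubc9-depleted library 1 (x axis) and library 2 (y axis), in RPKM on log axes, with 0 drawn at 0.002; the solid line marks equal levels and the dashed line the median in library 1 (0.0423 RPKM) of genes with 0 counts in the other 3 Ubc9 libraries. Most members above about 0.5 RPKM lie near the line of equal levels, with H2-DMa under it, and most members below that level have more RPKM in library 1.

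Of the 22 members tested in both comparisons, 5 rose in both: H2-Ab1, H2-Eb1, H2-Eb2, H2-M10.4 and Tap1. The share of all genes that rose in both was not computed, so nothing is read from the count of these 5 members. The comparisons share no libraries, and the difference between them was not tested. Their log2 fold changes in H1-TKO and in Ubc9-depleted cells were 5.74 ± 0.31 and 0.60 ± 0.11 for H2-Eb1, 3.86 ± 0.40 and 1.04 ± 0.40 for H2-Ab1, and 4.90 ± 0.85 and 2.56 ± 0.35 for H2-M10.4. For Tap1 they were 2.24 ± 0.29 and 2.73 ± 0.26. H2-Eb2, with low counts in both comparisons, was at least 12.0-fold higher in H1-TKO cells. Its log2 fold change in Ubc9-depleted cells was 3.64 ± 1.22. H2-Bl passed in opposite directions, at -2.62 ± 0.46 in H1-TKO cells and 1.15 ± 0.18 in Ubc9-depleted cells, and 0 members fell in both. H2-Q4 and H2-M3 rose in Ubc9-depleted cells (3.04 and 2.81) and had log2 fold changes of -0.88 and -1.13 in H1-TKO cells, where they did not pass.

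**Figure D4:**
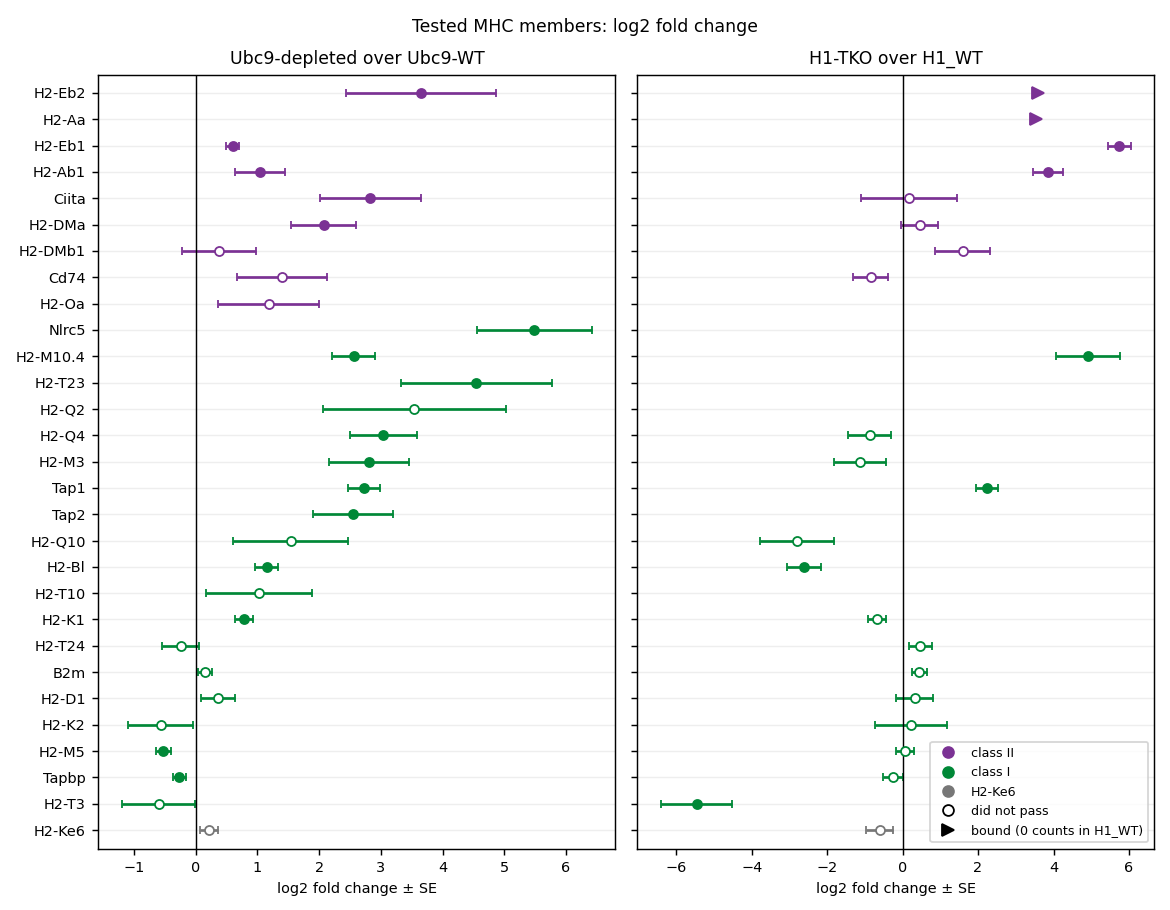
Log2 fold change ± SE of each member tested, Ubc9-depleted over Ubc9-WT on the left and H1-TKO over H1_WT on the right, from 2 libraries per group; filled markers passed at an adjusted p under 0.05, open circles did not, and triangles are lower bounds for genes with 0 counts in H1_WT. H2-Bl lies at 1.15 on the left and -2.62 on the right, and H2-Eb1 at 0.60 and 5.74.

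The H2 genes of chromosome 17 span 3.509 Mb (chr17:33974659-37483552), which also holds 153 genes of the tables that are no members. Of these, 99 were tested in the H1 comparison, and 9 rose (9.09%, against 8.59% of all genes) and 8 fell (8.08%, against 8.43%), with a median log2 fold change of 0.03. In the Ubc9 comparison 111 were tested, and 9 rose (8.11%, against 21.1% of all genes) and 15 fell (13.5%, against 15.0%), with a median of -0.06. The medians of all genes were -0.02 in the H1 comparison and 0.06 in the Ubc9 comparison. The neighbours' counts varied with the library left out, as did those of all genes. Their median log2 fold change ran from -0.18 to 0.295 for H1 and from -0.09 to 0.02 for Ubc9 over these fits. One of the neighbours is Psmb9, an immunoproteasome subunit whose gene adjoins Tap1. It was also listed with earlier results of these data known, so its p-values are no independent evidence. Psmb9 had 2.62 and 3.11 CPM in H1-TKO libraries, against 0.410 and 0.737 CPM in H1_WT libraries, and rose by 2.33 ± 0.48 (edgeR, adjusted p = 0.018). It had 1.06 and 0.890 CPM in Ubc9-depleted libraries, against 0.154 and 0.0760 CPM in Ubc9-WT libraries, and rose by 3.06 ± 0.86 (edgeR, adjusted p = 0.00655). The groups did not overlap in either comparison, but Psmb9 did not pass without H1-TKO library 2 (2.20 on the log2 scale) or without Ubc9-WT library 1 or 2 (3.63 and 2.61). Tap1 shares 3.33% of its 50-base words with other genes, Psmb9 in the first place. Psmb8, the subunit encoded beside Psmb9, was too low to be tested.

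**Figure D5:**
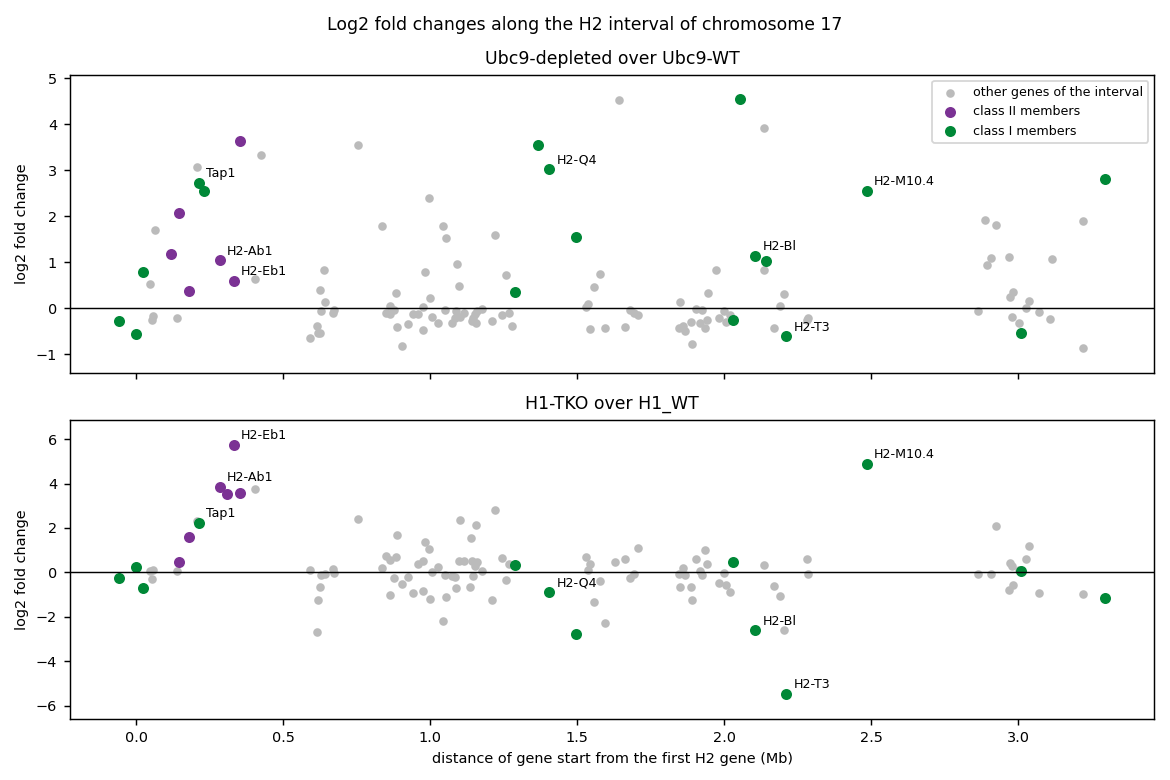
Log2 fold change of each tested gene on chromosome 17 by the distance of its start from the first H2 gene in Mb, Ubc9-depleted over Ubc9-WT above and H1-TKO over H1_WT below; purple points are class II members, green points class I members, grey points other genes of the interval, and genes with 0 counts in a group are drawn at their bound. In the lower panel the class II members H2-Ab1 (3.86) and H2-Eb1 (5.74) stand close together, and H2-T3 (-5.46) lies lowest.

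Genes that work with MHC molecules but fall outside the member rule were tested over all genes as well. Their lists were also chosen with earlier results of these data known. Their calls and p-values are therefore a description and no independent evidence. Of 66 such genes in 5 lists, 54 were tested in the Ubc9 comparison, where 9 rose (16.7%, against 21.1% of all genes) and 7 fell (13.0%, against 15.0%). In the H1 comparison 49 were tested, where 7 rose (14.3%, against 8.59%) and 8 fell (16.3%, against 8.43%). The median log2 fold changes of those tested were 0.09 for Ubc9 and -0.28 for H1. Among 22 regulators of MHC transcription, 3 rose and 3 fell of 21 tested in Ubc9-depleted cells (14.3% each, against 21.1% and 15.0% of all genes). In H1-TKO cells 1 rose and 2 fell of 22 (4.55% and 9.09%, against 8.59% and 8.43%). Irf1, the interferon-induced factor that binds class I promoters, fell in both comparisons. Irf1 had 10.5 and 10.0 CPM in Ubc9-depleted libraries, against 17.4 and 16.5 CPM in Ubc9-WT libraries, and fell by 0.72 ± 0.11 (edgeR, adjusted p = 1e-05). In H1-TKO libraries it had 11.9 and 12.0 CPM, against 20.7 and 27.5 CPM in H1_WT libraries, and fell by 1.02 ± 0.24 (edgeR, adjusted p = 0.027). Rfx5, which binds the X box, fell by 0.33 ± 0.11 in Ubc9-depleted cells (edgeR, adjusted p = 0.023) and had a log2 fold change of -0.33 ± 0.21 in H1-TKO cells, where it did not pass. Ifngr1, the interferon-gamma receptor, and Nfkb1 rose by 0.52 and 0.34 in Ubc9-depleted cells, while Creb1 fell by 0.45. Stat2 fell by 0.92 in H1-TKO cells. In the H1 comparison neither Irf1 nor Stat2 passed when either H1-TKO library was left out.

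Among 10 class I accessory genes, Psme1 and Psme2, which form the proteasome activator PA28, fell in both comparisons, by 0.42 and 0.63 in Ubc9-depleted cells and by 0.97 and 0.86 in H1-TKO cells. Of the 9 accessory genes tested in each comparison, 1 (Psmb9) rose (11.1%, against 21.1% of all genes for Ubc9 and 8.59% for H1). In Ubc9-depleted cells 2 fell (22.2%, against 15.0%), and in H1-TKO cells 3 fell (33.3%, against 8.43%). Among 6 class II accessory genes, the endosomal proteases Ctsl and Ctsd rose by 0.93 each in H1-TKO cells, and the thiol reductase Ifi30 fell by 1.19 there and by 0.37 in Ubc9-depleted cells. Among 14 class I-like genes outside the complex, Ulbp1, a ligand of the natural killer receptor NKG2D, rose by 1.12 in Ubc9-depleted cells. Fcgrt, the neonatal Fc receptor, rose by 1.02 in H1-TKO cells and fell by 0.43 in Ubc9-depleted cells. Of 14 interferon-gamma-inducible genes 8 were tested in Ubc9-depleted cells, and 3 rose (37.5%, against 21.1% of all genes) and 0 fell. In H1-TKO cells 6 were tested, and 1 (Icam1, by 1.02) rose and 2 fell (16.7% and 33.3%, against 8.59% and 8.43%). Igtp was in both counts, as it rose by 3.05 in Ubc9-depleted cells and fell by 2.82 in H1-TKO cells. Scaled by library totals alone, 1 of these 66 genes fell in Ubc9-depleted cells, in place of 7. The counts varied with the library left out, as did those of all genes. In the H1 comparison the median log2 fold change of those of the 66 tested was -0.21 and -0.19 without H1-TKO library 1 or 2. It was -0.03 and -0.22 without H1_WT library 1 or 2. In the Ubc9 comparison the median was 0.08 and 0.24 without Ubc9-depleted library 1 or 2, and 0.38 and 0.19 without Ubc9-WT library 1 or 2.

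Markers of the leukocytes that make class II molecules were also examined, from lists likewise chosen with earlier results of these data known. In the H1 comparison 8 of 18 leukocyte markers were tested and 0 passed in edgeR, where 2 had an unadjusted p under 0.05, while DESeq2 called 3. These were Cd68, a lysosomal protein known from macrophages, with 41.5 and 49.1 CPM in H1-TKO libraries, against 13.6 and 27.7 CPM in H1_WT libraries, Cd3e, a T cell receptor subunit, with a log2 fold change of 0.81 ± 0.25 in edgeR, and Itgam, with 1 and 2 counts against 9 and 40. The first 2 were higher in H1-TKO cells and Itgam lower. The edgeR count rests on the H1_WT libraries and varied with the one left out, as did the counts of all genes. The median log2 fold change of the markers tested was 0.56 with all libraries. It was -0.09 without H1_WT library 1, 0.95 without H1_WT library 2, -0.11 without H1-TKO library 1 and 0.38 without H1-TKO library 2. Ptprc, Ms4a1, Adgre1 and Lyz2 had 0 counts in all 4 H1 libraries. The summed level of the 18 was 348 and 328 CPM in H1-TKO libraries, against 188 and 333 CPM in H1_WT libraries, of which Laptm5 alone gave 275 and 244 CPM, against 157 and 277 CPM. In Ubc9-depleted cells 3 leukocyte markers rose (23.1%, against 21.1% of all genes) and 1 fell (7.69%, against 15.0%) of 13 tested. The summed level of the 18 was 132 and 130 CPM, against 114 and 114 CPM in Ubc9-WT cells. Those that rose were Flt3, a cytokine receptor of blood progenitors, with 4.73 and 4.44 CPM in Ubc9-depleted libraries, against 0.113 and 0.0652 CPM in Ubc9-WT libraries, Fcer1g, with 0.518 and 0.498 CPM against 0.0309 and 0.109 CPM, and Laptm5, with 90.2 and 89.1 CPM against 66.1 and 65.0 CPM. Cd3e fell by 0.97. Ptprc, the pan-leukocyte antigen, had 79 and 1 counts in Ubc9-depleted libraries, against 0 and 2 in Ubc9-WT libraries. Of 15 fibroblast markers 14 were tested in the Ubc9 comparison, and 9 rose (64.3%, against 21.1% of all genes) and 1 fell (7.14%, against 15.0%). The summed level of the 15 was 98.2 and 95.5 CPM in Ubc9-depleted libraries, against 75.3 and 72.5 CPM in Ubc9-WT libraries. Leaving out Fbln1, the marker that fell, gave 74.7 and 70.4 CPM, against 39.5 and 38.2 CPM. In the H1 comparison 1 of 7 tested rose and 1 fell (14.3% each, against 8.59% and 8.43% of all genes). The summed level was 117 and 105 CPM in H1-TKO libraries, against 60.3 and 83.7 CPM in H1_WT libraries. Without Fbln1, the marker with the most CPM, the sum was 16.1 and 14.8 CPM in H1-TKO libraries, against 17.7 and 27.3 CPM in H1_WT libraries. Postn and S100a4 had 0 counts in all 4. The part of leukocyte-type or fibroblast-type expression in the members' values was not tested.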

How the data were processed

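The deposited files hold raw counts per gene, 1 table for each comparison of 4 libraries. The submitters' processing notes name cutadapt, STAR, HTSeq, DESeq2 and mm10 for these counts by the authors; the annotation and strand setting behind them is not given in the sources used here. Without strand, reads of overlapping genes cannot be told apart. Per the labels, the Ubc9 libraries were made with ScriptSeq v2 and the H1 libraries with the Lexogen SENSE V2 kit. Each comparison was fitted alone with edgeR 4.0.16 in R 4.3.3: genes were kept by filterByExpr at its defaults (count 10, total 15), scaled by TMM and tested by quasi-likelihood, with p-values adjusted by Benjamini-Hochberg over all genes tested (threshold 0.05). An SE is the log2 fold change over the root of F. The biological coefficient of variation was 0.255 (Ubc9) and 0.239 (H1). The fit was tested on simulated data.

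GENCODE M21 (GRCm38) gave positions, exonic length for RPKM, and 50-base words that transcripts of different genes share; 23384 symbols matched by name, 667 by an older name, and 370 did not match. A group at 0 counts gives a bound on the fold, from 3 counts over that group; with 1 to 3 counts the fold is a ratio with an exact 95% interval. Intervals and floors cover counting error only. The members and the lists were chosen with earlier results of these data known. Members with counts are named, those with a mean of at least 1 CPM in a group with every library's value; partner genes are named where they passed at a mean of at least 5 CPM, up to 6 per direction, with Irf1, Rfx5, Psmb8 and Psmb9 in any case; some genes that this rule names are not reported here. Gbp2, Gbp3 and H60b passed below that level, and Igtp and single markers were named after their values were seen. Alternatives were no filter, scaling by totals alone or RLE, a replicate block, DESeq2 1.42.0 and the omission of each library; a lone library was assumed to vary like the other group's pair.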

Additional observations from a re-analysis of the deposited data

How the results depend on the processing

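Scaling by RLE factors moved no count of calls by over 1.5 times. In the Ubc9 comparison, library totals alone gave 1084 lower genes in all, 0 lower members, 1 lower partner gene and 6 lower neighbours; DESeq2 gave 1 lower member and 4 lower partner genes. Without a filter, the H1 comparison gave 1895 lower genes in all and 13 lower partner genes. With library totals alone, Ctsl (0.046), Icam1 (0.068) and Stat2 (0.055) reversed for Ubc9 and H2-M5 (-0.019) for H1. Leaving out each library gave, for Ubc9, 1230 to 8428 higher and 795 to 4610 lower genes in all, 7 to 25 higher and 1 to 3 lower members, 1 to 23 higher and 3 to 18 lower partner genes, and 3 to 35 higher and 6 to 30 lower neighbours. For H1 it gave 617 to 3994 higher and 488 to 4038 lower genes in all, 4 to 8 higher and 2 to 8 lower members, 0 to 12 higher and 1 to 17 lower partner genes, and 2 to 36 higher and 1 to 33 lower neighbours. Over the same fits the log2 fold changes of genes that reversed ran from -0.82 to 4.42 (Ciita), -1.05 to 0.32 (Creb1), -0.075 to 0.66 (H2-D1), -0.058 to 0.82 (H2-DMa), -1.20 to 0.96 (H2-K2), -0.10 to 0.22 (H2-M5) and -0.53 to 0.084 (Tapbp) for H1, and from -0.35 to 0.82 (H2-DMb1) and -0.041 to 0.45 (H2-Ke6) for Ubc9. The cause was not tested. The rarest members had too few counts to be tested, and whether depth limited them was not tested.

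The groups share replicate numbers, but the labels tie no number to a shared batch or day. The correlation of the deviations of same-numbered libraries was -0.00316 for Ubc9 and 0.156 for H1, and with 2 numbers each they were not taken as pairs. A replicate block gave 3160 higher and 2643 lower genes for Ubc9, with 14 higher members and 1 lower, and 1732 higher and 1729 lower genes for H1, with 6 higher members and 3 lower; H2-K2 was at -0.024 for H1.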
